A study of Mus musculus with 22 samples.

Results

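The phase II conjugating enzymes attach a polar group to drugs, hormones, bilirubin, bile acids and reactive by-products, so that these can leave the cell and the body. The members described here were the genes listed in both deposited expression tables whose symbol begins with Ugt1, Ugt2, Ugt3, Gsta, Gstm, Gstp, Gstt, Gsto, Gstk, Gstz, Mgst or Sult. The choice used symbols and no measured values, although it was made with earlier results of these data known. This gave 62 genes, of 24063 genes in the first table and 24019 in the second. Of the 62, 54 passed the filter on low values in each set and entered the tests. Gstt4, Sult1c1, Sult2a7, Sult2b1, Sult3a1, Ugt2a1 and Ugt2a2 were below it in both sets, Ugt2b38 passed in set 2 alone and Sult4a1 in set 1 alone.

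As background, UDP-glucuronosyltransferases (UGT1 and UGT2) sit in the endoplasmic reticulum and transfer glucuronate from UDP-glucuronate, whereas UGT3 enzymes use other sugar nucleotides. Glutathione S-transferases (GST, with the membrane-bound MGST) couple glutathione to electrophiles, and sulfotransferases (SULT) take sulfate from the donor PAPS. In the liver these enzymes are mainly hepatocyte products, and several of them are highest around the central vein, where Wnt/β-catenin signalling is active.

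Expression was measured by RNA sequencing in 22 untreated MYC-driven tumours of C57BL/6 mice, in 2 sets with a table each. The plasmids were delivered by hydrodynamic injection, a rapid large-volume injection into the tail vein that places them mainly in hepatocytes. All tumours carried MYC, the second lesion was either p53 (written sgp53 in the set 2 titles) or β-catenin (bcat or CTNNB1), and the plasmids also held luciferase without (luc) or with (lucOS) model antigen peptides. The title of the series names immune escape of β-catenin-activated tumours as its subject. Set 1 consisted of 6 p53 tumours (3 with luc, 3 with lucOS) and 6 β-catenin tumours (4 with luc, 2 with lucOS). Set 2 had 4 p53 tumours, all lucOS, and 6 β-catenin tumours, 3 with luc and 3 with lucOS, so it has no luc p53 group. The sample names begin with AL in set 1 and in p53 tumours 1 to 3 of set 2, and with JAX in p53 tumour 4 and all β-catenin tumours of set 2, so name prefix and driver nearly coincide there. Separate animals are not stated in the labels, so p-values measure the spread between these samples, which may be partly technical.

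Many members lie in clusters of related genes. On GRCm38, 13 of the 62 fall between 86889767 and 87591594 on chromosome 5 (the Ugt2 genes with Sult1b1, Sult1d1 and Sult1e1). The Ugt1a genes span 88055388 to 88220002 on chromosome 1, where each has its own first exon and promoter and all share the later exons. Short stretches of the promoters of some of the called members are shown, because they hold the letters of sites for factors known to act on these enzymes. They are RefSeq sequence on GRCm38.p6, read in the direction of the gene, and windows were found for 54 of the 62 members (65 windows of 300 bases, of which 250 lie before the start site). In the first 3 stretches the capitals mark TGACNNNGC on either strand, the core of the antioxidant response element bound by NRF2. In the next 3 they mark CTTTGAA on either strand, a form of the TCF/LEF site through which β-catenin acts.
Mgst1, chr6:138140446-138140504, plus strand: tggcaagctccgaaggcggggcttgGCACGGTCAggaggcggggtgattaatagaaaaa
Gsta3, chr1:21240439-21240497, plus strand: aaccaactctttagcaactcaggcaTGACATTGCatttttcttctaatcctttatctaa
Gstm7, chr3:107931710-107931768, minus strand: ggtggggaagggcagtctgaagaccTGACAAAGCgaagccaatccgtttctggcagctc
Ugt2b36, chr5:87092665-87092721, minus strand: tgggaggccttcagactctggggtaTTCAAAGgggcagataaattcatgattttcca
Ugt1a6a, chr1:88134663-88134719, plus strand: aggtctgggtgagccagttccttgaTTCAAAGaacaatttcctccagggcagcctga
Sult1c2, chr17:53846080-53846136, minus strand: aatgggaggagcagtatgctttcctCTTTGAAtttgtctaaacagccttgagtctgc
Windows with TGACNNNGC numbered 4 of 65 among members (6.15%) and made up 12.4% of all promoters, and those with CTTTGAA numbered 7 of 65 (10.8%) beside 5.14% of all. CTTTGAT on either strand was found in 0 member windows and in 3.73% of all. GTTAATNAT on either strand, the letters of an HNF1 site, was found in 8 of 65 member windows (12.3%) and in 0.80% of all. These windows, not shown, were of Ugt1a1, Ugt1a9, Ugt1a10, Sult2a3 to Sult2a6 and Sult1d1. The TGACNNNGC window not shown was that of Gstm5, whose difference between the drivers was negative in each comparison below. Ugt2b36 was higher and Sult1c2 lower in β-catenin tumours, and both windows hold CTTTGAA. A match of letters is a description and does not show that a factor binds there.

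Total reads over genes ran from 33.706 M to 54.873 M per tumour in set 1 and from 33.551 M to 50.116 M in set 2. The labelled liver origin was checked with 7 hepatocyte markers (Alb, Ttr, Apoa1, Tf, Serpina1a, Apob and Hnf4a), which were detected in every group. Their summed value ran from 445951 to 823130 in p53 and from 1037380 to 1247760 in β-catenin tumours of set 1, without overlap, and from 314702 to 517076 and 248557 to 983423 in set 2, with overlap. In bulk tumour RNA, fewer hepatocytes and less of a transcript per hepatocyte cannot be told apart. Of the 4 Wnt check genes (Axin2, Lgr5, Glul and Cyp2e1), 4, 3 and 3 were higher with β-catenin in the 3 driver comparisons below. The 4 kidney tubule markers (Cdh16, Pax8, Kl and Slc34a1) summed to between 1059 and 5600.4 in p53 tumours and between 1.79 and 28.7 in β-catenin tumours. Summed leukocyte markers (5 genes) were 1495 to 2538 in p53 and 476 to 781 in β-catenin tumours of set 2, and overlapped between the drivers in set 1. The bile duct markers (4 genes, Sox9 called lower in both set 1 comparisons) summed to 585 to 5404 in p53 and 43 to 409 in β-catenin tumours of set 1, without overlap, and overlapped in set 2. The endothelial markers (4 genes, Pecam1 and Cdh5 called lower in set 2) summed to 5676 to 8137 in p53 and 2479 to 5300 in β-catenin tumours of set 2 and overlapped in set 1. Of the 4 macrophage markers, Adgre1 and Csf1r were called lower and Clec4f higher in set 2. The part of these cell types in the differences described here was not tested.

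Most conjugating enzymes that differed between the drivers were higher in β-catenin than in p53 tumours. A member was called when its adjusted p in limma was under 0.05. Without antigen (luc, set 1), 23 of 54 tested members were called higher with β-catenin and 2 lower, beside 5.93% and 9.16% of all tested genes. With antigen (lucOS), 15 were higher and 2 lower in set 1 (all genes 1.62% and 2.59%), and 27 were higher and 1 lower in set 2 (all genes 6.08% and 10.9%). The median log2 difference of the 54 was 1.55, 1.47 and 1.59, whereas that of all tested genes was -0.20, -0.15 and -0.16. Under TMM scaling the median of all genes moved to -0.01, -0.00089 and -0.01 and that of the members to 1.74, 1.61 and 1.74. Sult6b1, one of the 2 lower in luc tumours, and Sult1e1, one of the 27 higher in set 2, passed the filter only through the driver group in which they were high, and leaving them out gives 1 and 26. The 3 comparisons share no tumour. The 8 Ugt1a genes carry largely the same reads, and with Ugt1a1 alone standing for them the calls were 16 higher and 2 lower, 8 and 2, and 20 and 1, of 47 tested.

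**Figure D1:**
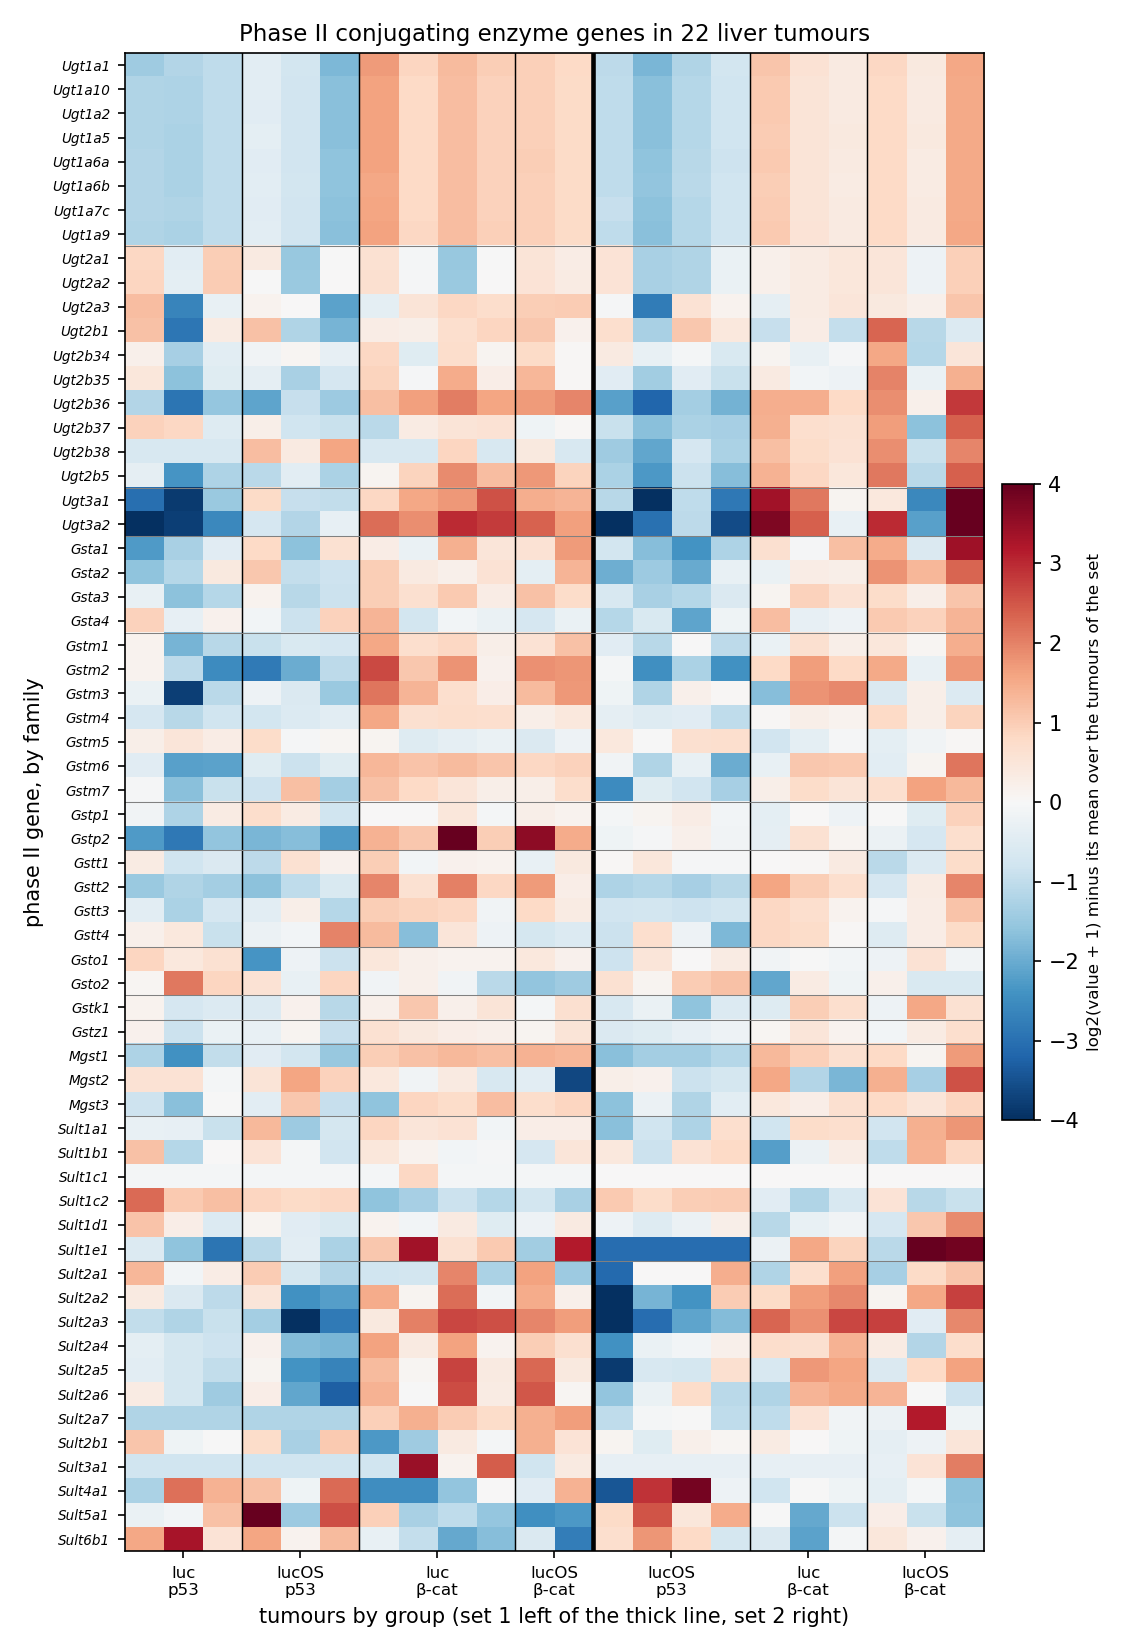
Heat map of the 62 members (rows, ordered by family) in the 22 tumours (columns, by group), coloured by log2(value + 1) minus the mean over the tumours of the same set, with the colour scale limited to 4 either way. The Ugt1a rows, Ugt2b36 and Mgst1 are above their set mean in the β-catenin columns, and Sult1c2 is below it there apart from lucOS β-catenin tumour 1 of set 2.

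The set 1 lucOS comparison rested on 2 β-catenin tumours. Without lucOS β-catenin tumour 1, 1 member was called higher (Ugt2b36, adjusted p = 0.0452) and 1 lower (Mgst2). Of all genes, 0.249% were then higher and 0.504% lower. Without tumour 2, or with these 2 groups fitted alone, limma called 0 members in either direction, beside 76 of 16058 genes (0.473%) and 18 of 15519 (0.116%). In those fits 27 and 28 members had an unadjusted p under 0.05, as did 16.9% and 17.8% of all genes. Leaving out lucOS p53 tumour 1 or 3 left 11 or 12 higher and 0 lower. Of all genes, 0.580% or 0.676% were then higher and 0.711% or 0.695% lower. In the luc comparison 17 to 23 members stayed higher when single tumours were left out, and the count of lower members fell from 2 to 1 without luc p53 tumour 1 or 2 or luc β-catenin tumour 3 or 4. Of all genes, 2.94% to 5.17% were higher and 2.13% to 7.05% lower in these luc fits. In set 2 the higher count ran from 17 (without lucOS β-catenin tumour 3) to 29, and the lower count fell to 0 without p53 tumour 1, 3 or 4 or lucOS β-catenin tumour 2. The shares of all genes in the set 2 fits were 2.88% to 5.60% higher and 4.22% to 8.84% lower. When set 2 was restricted to JAX names, which leaves 1 p53 tumour, limma called 0 members in either direction, beside 23 of 15083 genes (0.152%), and 21 of 52 members had an unadjusted p under 0.05, as did 8.94% of all genes.

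With each tumour centred on its hepatocyte markers, the calls were 22 members higher and 6 lower, 14 and 2, and 22 and 0. Of all genes, 2.99% were then higher and 39.7% lower in the luc comparison, 0.565% and 1.99% in lucOS tumours of set 1, and 2.73% and 1.86% in set 2. The median of all genes moved to -0.88, -0.45 and -0.02, and that of the members to 0.88, 1.17 and 1.73. The 6 lower members in luc tumours are a smaller share than that of all genes lower there.

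Called higher in all 3 comparisons were 13 members: the 8 Ugt1a genes, Ugt2b36, Gstm2, Gstt2, Mgst1 and Sult2a3. With Ugt1a1 alone standing for the Ugt1a genes, which carry largely the same reads, these are 6. Sult1c2 was the member called lower in all 3. Over the 53 members tested in both sets, 39 had a positive difference in each comparison and 5 a negative one. These counts include members that passed a filter only through the driver group in which they were high, such as Gsto2 in set 1. The like counts over all genes are not given, so these signs are a description only. Across the comparisons 32 members were called higher at least once (25 with Ugt1a1 alone) and 3 lower at least once (Mgst2, Sult1c2 and Sult6b1). Another 27 were never called, 7 of which were below the filter in both sets. The shares of all genes called in all 3 comparisons, in any or in none are not given. The 32 include Sult1e1 and the 3 include Sult6b1, whose calls are not given as tests.

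**Figure D2:**
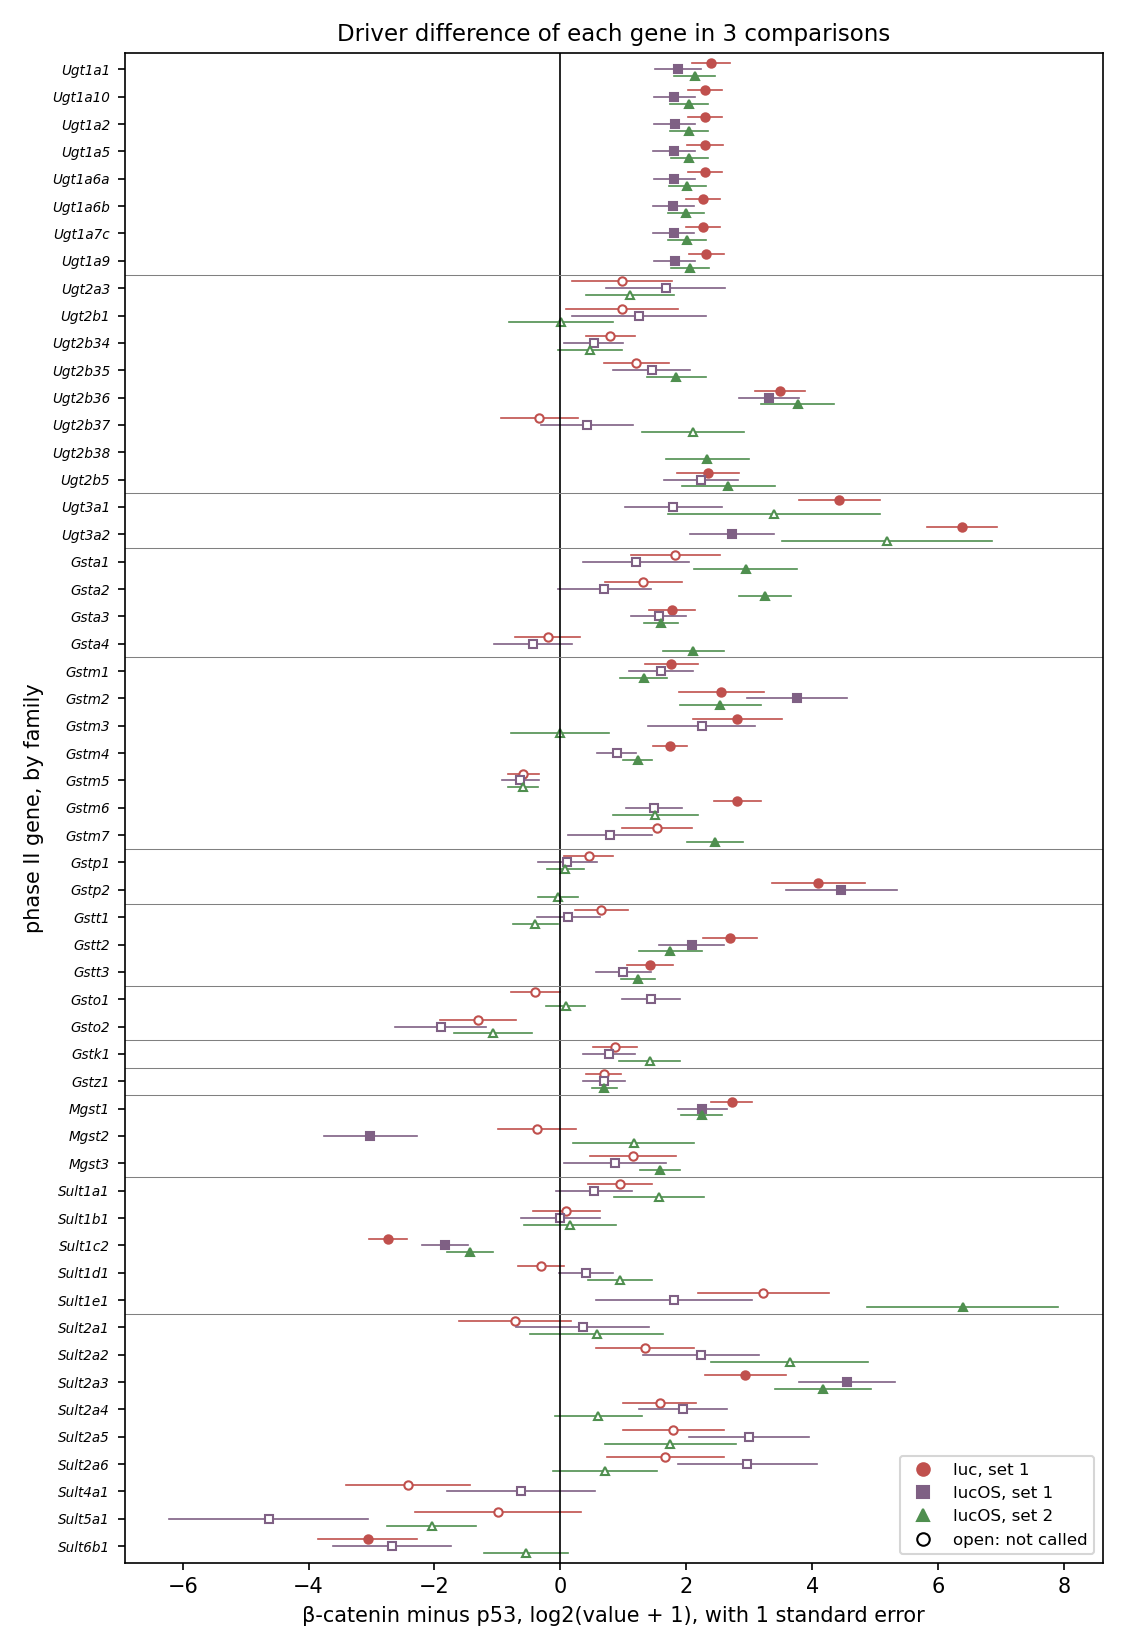
Log2 difference between β-catenin and p53 tumours for each tested member in luc tumours of set 1, lucOS tumours of set 1 and lucOS tumours of set 2, with bars of 1 standard error and filled points for members with an adjusted p under 0.05. Filled points lie mostly right of 0, with Sult1c2 left of 0 in all 3 comparisons.

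Among the glucuronidating enzymes, the Ugt1a locus was higher with β-catenin in every comparison. Ugt1a1, the enzyme that conjugates bilirubin, stood at 5159.9, 6141 and 6838 in the luc p53 tumours of set 1 and at 44543, 24799, 32898 and 27197 in luc β-catenin tumours. With lucOS it was 10173, 8208 and 3992 in p53 and 26628 and 24037 in β-catenin tumours. In set 2 the lucOS p53 tumours had 7231, 4209, 6549.6 and 9093, the luc β-catenin tumours 32580.2, 22423 and 19175, and the lucOS β-catenin tumours 26589.8, 19907 and 44192. All β-catenin tumours of a set were above all its p53 tumours. The log2 differences were 2.39 ± 0.30 (SE, adjusted p = 0.00108), 1.87 ± 0.36 (adjusted p = 0.0254) and 2.13 ± 0.33 (adjusted p = 0.00533). The set 1 lucOS call was lost in 2 of the 5 fits that left out a tumour.

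The separate values of the 8 Ugt1a genes are uncertain, because reads from the shared exons appear to be counted for each of them. The part of Ugt1a1 above the lowest Ugt1a gene was 15.5% to 32.1% of its value (median 27.8%), whereas the median share was 5.26% for Ugt1a6a, 3.63% for Ugt1a6b and 1.13% or less for the other 5. That excess was 824, 1927 and 1925 in luc p53 and 14316.5, 7318, 9479 and 8179 in luc β-catenin tumours, without overlap. Fitted on the excess, a choice made after seeing the data, Ugt1a1 rose by 2.71 ± 0.43 log2 units in luc tumours of set 1 (adjusted p = 0.00366) and by 2.45 in set 2 (adjusted p = 0.00955), and in lucOS tumours of set 1 its adjusted p was 0.0509. Ugt1a9 rose by 4.13 (adjusted p = 0.00547) and Ugt1a6a, which conjugates simple phenols, by 2.29 (adjusted p = 0.00869) in luc tumours. In the lucOS comparisons of set 1 and set 2 Ugt1a9 differed by 1.80 and 3.01 (adjusted p = 0.224 and 0.0566). Ugt1a6a differed by 1.65 and 1.56 there (adjusted p = 0.0919 and 0.0421). The Ugt1a9 excess in luc p53 tumours was 9.08 to 44.8, or 0.215% to 1.02% of its value, a small remainder after subtraction. The excess of Ugt1a7c differed by -1.23 in luc tumours (adjusted p = 0.222).

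**Figure D3:**
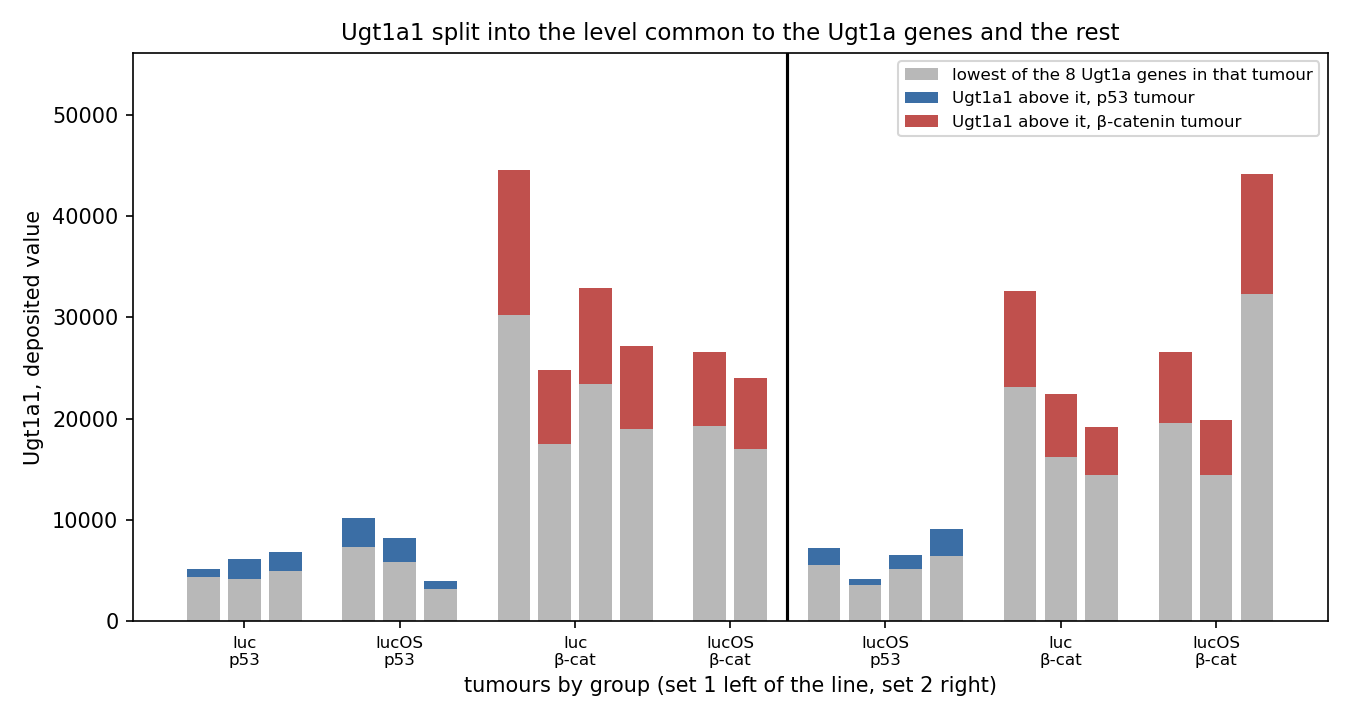
Deposited Ugt1a1 value in each of the 22 tumours by group, as bars from 0, split into the value of the lowest of the 8 Ugt1a genes in that tumour (grey) and the rest. Both parts are higher in the β-catenin tumours, and the upper part is 15.5% to 32.1% of each bar.

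The UGT2 enzymes, which conjugate steroids, bile acids and many drugs, were called in part. Of those tested, 2 of 7, 1 of 7 and 4 of 8 were called higher in the 3 comparisons and 0 lower. Ugt2b36 was the member called in all 3. It stood at 850.0, 253 and 656 in luc p53 and 4415, 5899, 7959 and 5737 in luc β-catenin tumours of set 1. The lucOS values there were 437, 997 and 698 in p53 and 6182 and 7332 in β-catenin tumours. In set 2 they were 398, 201, 711 and 489.5 in lucOS p53, 4968, 4901 and 3110.2 in luc β-catenin and 6615, 2076 and 12754 in lucOS β-catenin tumours. The drivers did not overlap in either set, and the log2 differences were 3.49 ± 0.40 (adjusted p = 0.000657), 3.32 ± 0.48 (adjusted p = 0.00935) and 3.77 ± 0.58 (adjusted p = 0.00541). The second call was lost without lucOS β-catenin tumour 2 (adjusted p = 0.0630).

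Its neighbour Ugt2b5 was 2087, 523 and 1154 in luc p53 and 2899, 4953, 9981 and 6322 in luc β-catenin tumours, a difference of 2.34 ± 0.49 (adjusted p = 0.0125). In set 2 it rose by 2.67 ± 0.74 (adjusted p = 0.0361), although lucOS β-catenin tumour 2, at 1864, lay within the p53 range of 807 to 2171, and the call held in 1 of 7 fits without a tumour. Ugt2b34, the UGT2 member with the highest mean, ran from 3409 to 9965 in set 1 p53 and from 6097 to 15114 in set 1 β-catenin tumours and was not called in any comparison (adjusted p = 0.182, 0.529 and 0.552). Ugt2b35 and Ugt2b38 were called in set 2 alone, with differences of 1.84 ± 0.46 and 2.34 ± 0.66, and each call held in 1 of 7 fits without a tumour (adjusted p of the others 0.0514 to 0.0888 and 0.0603 to 0.127). Ugt2b37 and Ugt2b38 are near-identical copies and their values are uncertain: Ugt2b38 did not exceed 3.68 in set 1 and was 26.7 to 453 in set 2. Relative to Ugt2b5, the value of Ugt2b38 was 0% to 0.327% in set 1 and 2.18% to 3.93% in set 2. Whether its set 2 call is separate from that of Ugt2b5 was not tested.

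Ugt3a2, a glycosyltransferase of the UGT3 family on chromosome 15 (9335550 to 9370955), had the largest difference of all members in luc tumours of set 1. Its values were 8.15, 27.2 and 63 in luc p53 and 1793, 1396, 3053 and 2649.8 in luc β-catenin tumours. With lucOS they were 238, 169 and 305 in p53 and 1982 and 1179.8 in β-catenin tumours. In set 2 the lucOS p53 tumours had 4.56, 16.6, 66.7 and 10.7, the luc β-catenin tumours 1865, 725 and 113, and the lucOS β-catenin tumours 1099.6, 29.9 and 6548. The drivers did not overlap in set 1, whereas in set 2 lucOS β-catenin tumour 2 fell inside the p53 range. In luc tumours Ugt3a2 rose by 6.38 ± 0.56 log2 units (adjusted p = 0.000144), and the call held without any single tumour. In lucOS tumours of set 1 it rose by 2.72 ± 0.67 (adjusted p = 0.0475), and the call was lost without any 1 of the 5 tumours (adjusted p = 0.0741 to 0.180). In set 2 the difference was 5.18 ± 1.67 and missed the threshold (adjusted p = 0.0588), whereas without lucOS β-catenin tumour 2 it was 7.33 (adjusted p = 0.0115). edgeR gave adjusted p = 0.0275 there on the recovered reads.

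Ugt3a1, the other member of the family and its neighbour, is described with it. It was 6.79, 3.40 and 21.5 in luc p53 and 109, 182, 206 and 365 in luc β-catenin tumours, and rose by 4.43 ± 0.64 (adjusted p = 0.00248). In lucOS tumours it differed by 1.79 ± 0.77 in set 1 (adjusted p = 0.187) and 3.40 ± 1.68 in set 2. No p53 tumour of set 2 exceeded 6.96, so Ugt3a1 passed the filter there only through β-catenin tumours. Its set 2 difference is therefore not given as a test. In set 2 its lucOS β-catenin values were 20.4, 1.66 and 787, and tumour 2 was again the low one.

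**Figure D4:**
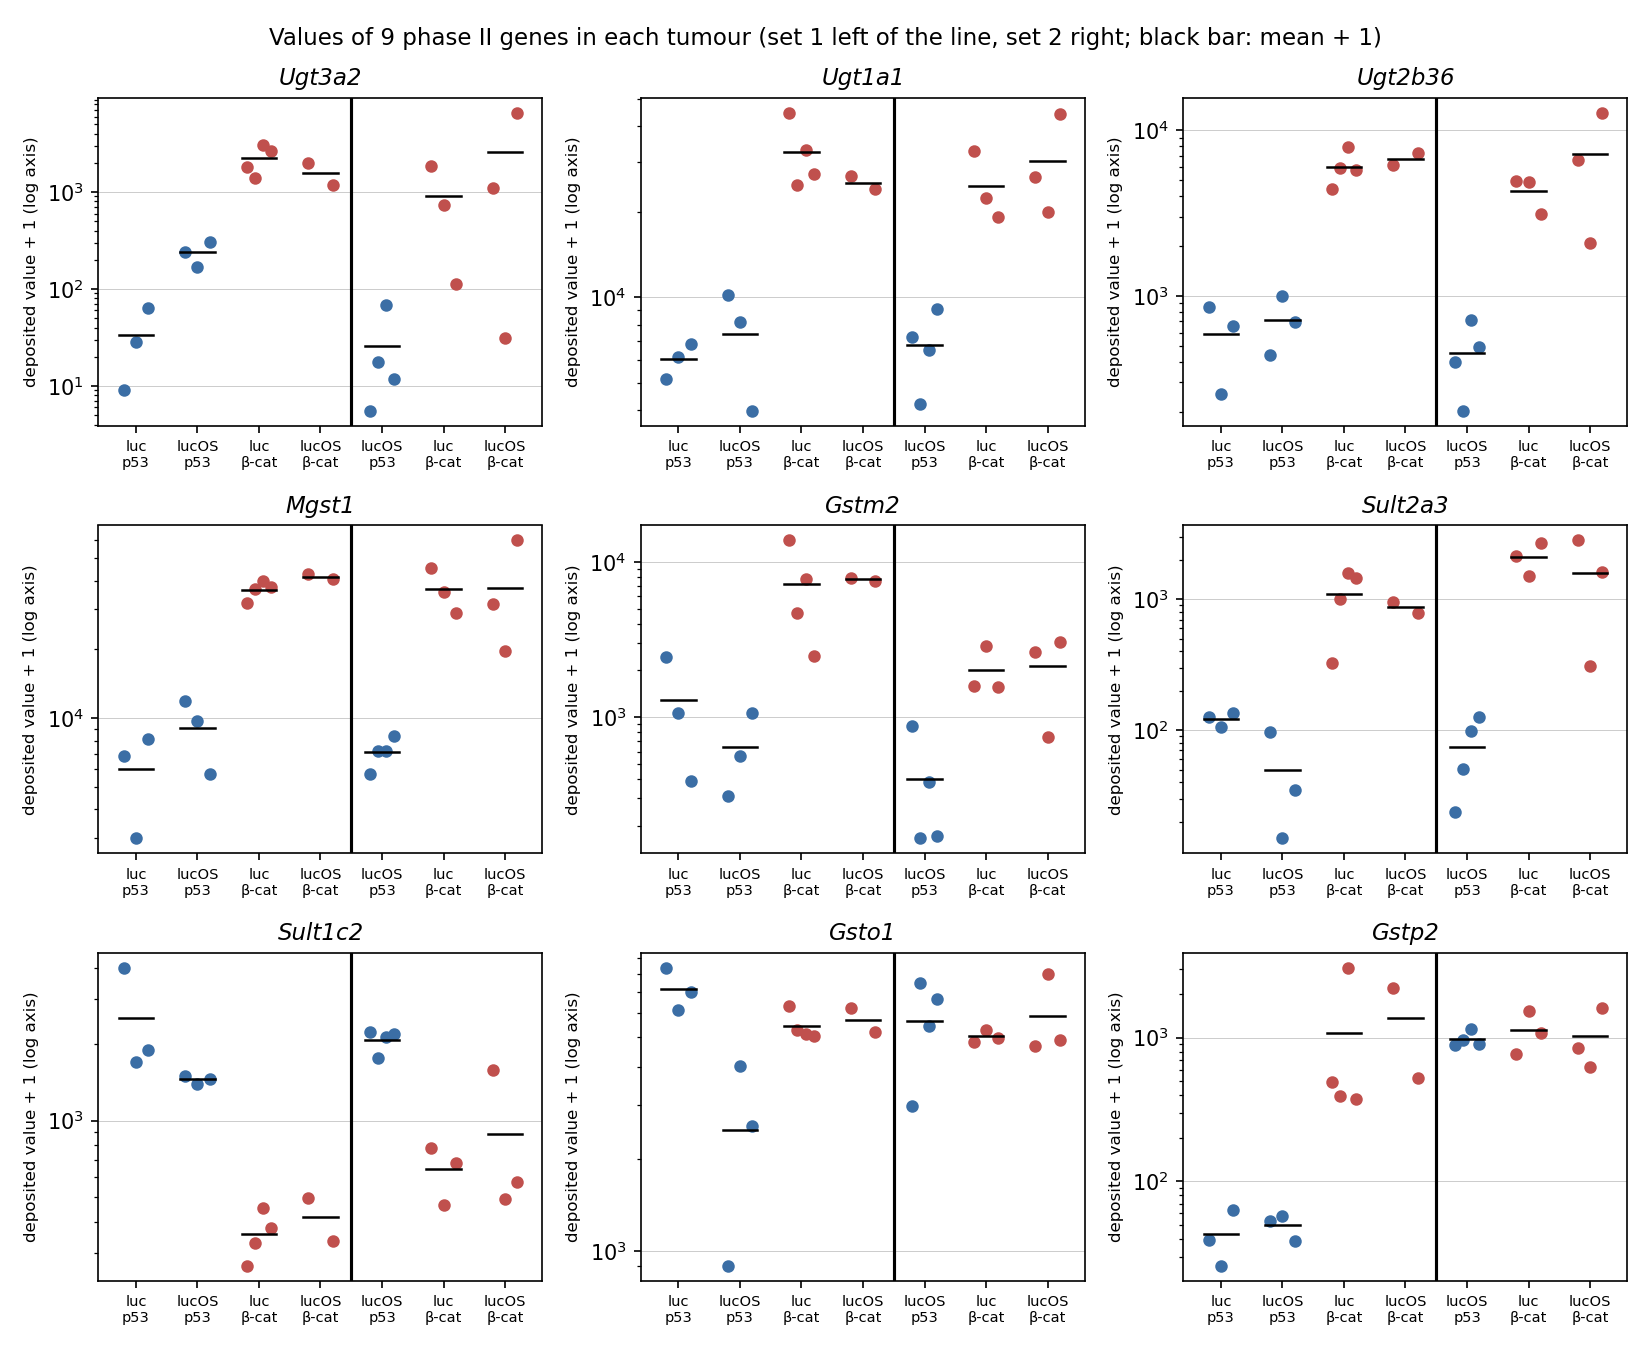
Deposited value + 1 on a log axis for Ugt3a2, Ugt1a1, Ugt2b36, Mgst1, Gstm2, Sult2a3, Sult1c2, Gsto1 and Gstp2 in each tumour by group, with p53 tumours in blue, β-catenin tumours in red and a black bar at the group mean + 1. Ugt1a1, Ugt2b36, Mgst1 and Sult2a3 are separated by driver in both sets, Sult1c2 is separated in the opposite direction, and Gsto1 is not separated.

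Of the alpha-class transferases, Gsta3 had the highest mean value and rose in the luc comparison and in set 2. Gsta3, which conjugates the aflatoxin epoxide in mice, was 24144, 9609 and 13539 in luc p53 and 58674, 46839, 61853 and 36397 in luc β-catenin tumours. The difference was 1.77 ± 0.36 (adjusted p = 0.0117), and it was lost without luc p53 tumour 2 (adjusted p = 0.0505). In lucOS tumours of set 1 the groups did not overlap either (13879 to 32881 in p53, 49847 and 66777 in β-catenin), with a difference of 1.56 ± 0.43 that missed the threshold (adjusted p = 0.0655). In set 2 Gsta3 rose by 1.60 ± 0.27 (adjusted p = 0.00757).

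All 4 alpha-class genes were called higher in set 2, against 1 of 4 and 0 of 4 in set 1, and the difference between the sets was not tested. Gsta2 there was 173, 242, 164 and 541 in lucOS p53, 559, 818 and 791 in luc β-catenin and 2338, 1681 and 3390.1 in lucOS β-catenin tumours. It rose by 3.26 ± 0.41 (adjusted p = 0.00256), and in set 1 its driver difference was 1.32 ± 0.62 with luc and 0.70 ± 0.74 with lucOS. Gsta1 was 33.8, 16.6, 9.95 and 23.8 in lucOS p53 and 160.1, 37.3 and 606 in lucOS β-catenin tumours of set 2, a rise of 2.95 ± 0.82 (adjusted p = 0.0368) that held in 1 of 7 fits without a tumour. Gsta4, which clears the lipid aldehyde 4-hydroxynonenal, rose by 2.11 ± 0.48 in set 2 (adjusted p = 0.0196) and differed by -0.20 ± 0.52 in luc tumours of set 1. The set 2 call was lost without p53 tumour 1 or lucOS β-catenin tumour 3 (adjusted p = 0.0515 and 0.0642).

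The mu class was called higher for 5 of 7 genes in luc tumours, 1 of 7 in lucOS tumours of set 1 and 4 of 7 in set 2, and 0 were lower. All 7 lie side by side on chromosome 3 (107895821 to 108044894). Gstm1, with the highest mean value of them, was 28502, 7061 and 12019.5 in luc p53 and 74972, 41099, 45855 and 30269 in luc β-catenin tumours. It rose by 1.76 ± 0.42 (adjusted p = 0.0213) and by 1.32 ± 0.38 in set 2 (adjusted p = 0.0405). The luc call was lost without luc p53 tumour 2 or 3 or luc β-catenin tumour 3 (adjusted p = 0.0507 to 0.0782), and the set 2 call was lost without p53 tumour 1, 2 or 4 or lucOS β-catenin tumour 1 or 3 (adjusted p = 0.0646 to 0.126). The drivers did not overlap in set 1 or among the lucOS tumours of set 2, whereas luc β-catenin tumour 1 of set 2, at 13729, lay within the p53 range of 7694 to 16559.5.

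Gstm2 was called in all 3 comparisons. It stood at 2424, 1068 and 388 in luc p53 and 13731, 4652, 7754 and 2461 in luc β-catenin tumours. The lucOS tumours of set 1 had 311, 558 and 1057 with p53 and 7902 and 7533 with β-catenin, and those of set 2 had 872, 166, 380.1 and 169.9 with p53 and 2631, 744 and 3063 with β-catenin. The log2 differences were 2.56 ± 0.67 (adjusted p = 0.0288), 3.76 ± 0.80 (adjusted p = 0.0323) and 2.54 ± 0.65 (adjusted p = 0.0282), and in set 2 lucOS β-catenin tumour 2 overlapped the p53 range. In fits without single tumours the calls held in 3 of 7, 2 of 5 and 2 of 7.

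Gstm3 and Gstm6 were called in the luc comparison alone. Gstm6 was 330.0, 98.7 and 101 in luc p53 and 1129.8, 1007, 1093 and 972 in luc β-catenin tumours, a rise of 2.81 ± 0.37 (adjusted p = 0.00145). Gstm3 rose by 2.81 ± 0.71 there (adjusted p = 0.0257), a call lost without luc p53 tumour 2 or luc β-catenin tumour 1 or 2 (adjusted p = 0.0532 to 0.0610). In set 2 its lucOS values of 1018 to 2720.1 with p53 and 1598 to 2818 with β-catenin overlapped. Gstm7 was called in set 2 alone: lucOS p53 tumours had 138, 566, 466 and 315 and lucOS β-catenin tumours 1243, 2426 and 1951, a rise of 2.46 ± 0.44 (adjusted p = 0.00885). Gstm5 was the mu-class gene with a negative difference in each comparison (-0.59 ± 0.25, -0.64 ± 0.29 and -0.59 ± 0.24), none of which passed the threshold.

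The pi-class genes, 2 adjacent copies on chromosome 19 (4035407 to 4046023), are described one by one. Gstp1 was 10791, 5068 and 15066 in luc p53 and 12013, 12100.3, 16374 and 11253 in luc β-catenin tumours, and its differences of 0.45 ± 0.39, 0.11 ± 0.47 and 0.08 ± 0.29 were not called. Gstp2 was 38, 25 and 62.3 in luc p53 and 489.5, 394, 3056 and 372 in luc β-catenin tumours. With lucOS in set 1 it was 51.8, 56.8 and 37.7 in p53 and 2228 and 524 in β-catenin tumours. It rose by 4.10 ± 0.73 (adjusted p = 0.00652) and 4.46 ± 0.88 (adjusted p = 0.0266), the latter call holding in 1 of 5 fits without a tumour. In each of these comparisons edgeR called 1 of the 2 pi-class genes and DESeq2 called 0.

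In set 2 Gstp2 did not separate the drivers: lucOS p53 tumours had 892, 958, 1150.1 and 908 and lucOS β-catenin tumours 853, 627 and 1595 (difference -0.04 ± 0.32, adjusted p = 0.950). The value of Gstp2 relative to Gstp1 was 0.268% to 0.552% in set 1 p53, 3.26% to 18.7% in set 1 β-catenin and 5.30% to 9.58% in all set 2 tumours. Gstp1 and Gstp2 are near-identical, so the assignment of reads between them is uncertain, and the 2 tables were made separately. Whether that accounts for the set 2 level was not tested.

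In the theta class, Gstt2 was called higher in all 3 comparisons and Gstt3 in the luc and set 2 comparisons. Gstt2 was 487, 596 and 539.6 in luc p53 and 5282, 2095, 5545 and 2423 in luc β-catenin tumours, and rose by 2.69 ± 0.43 (adjusted p = 0.00379). In lucOS tumours it rose by 2.09 ± 0.51 in set 1 (adjusted p = 0.0478, lost in all 5 fits without a tumour) and 1.74 ± 0.50 in set 2 (adjusted p = 0.0410, held in 1 of 7). Its set 2 values were 305, 327, 283 and 330.3 in lucOS p53 and 453, 891 and 2797 in lucOS β-catenin tumours, without overlap. Gstt3 rose by 1.43 ± 0.36 in luc tumours (adjusted p = 0.0256, held in 1 of 7 fits without a tumour) and 1.23 ± 0.26 in set 2 (adjusted p = 0.0161). Gstt1 lay between 1168 and 3683 in set 1 p53 and between 1965 and 4849 in set 1 β-catenin tumours and was not called.

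Gsto1, the omega-class enzyme that reduces dehydroascorbate and methylated arsenic, was not called in any comparison. It stood at 8386, 6131 and 6979.7 in luc p53, 898, 4009 and 2553 in lucOS p53, 6307, 5263, 5105 and 5022 in luc β-catenin and 6191 and 5190.0 in lucOS β-catenin tumours of set 1. In set 2 it was 2981, 7505, 5442 and 6658 in lucOS p53, 4820.5, 5259 and 4964 in luc β-catenin and 4652, 7999 and 4865 in lucOS β-catenin tumours. In set 1 the β-catenin tumours lay between 5022 and 6307, within the wider p53 range of 898 to 8386. In set 2 the β-catenin tumours lay between 4652 and 7999 and the p53 tumours between 2981 and 7505, with overlap. Driver differences were -0.40 ± 0.39 (adjusted p = 0.504), 1.44 ± 0.46 (adjusted p = 0.0943) and 0.08 ± 0.31 (adjusted p = 0.871). The set 1 lucOS groups did not overlap, and DESeq2 called that difference (adjusted p = 0.0450), as did limma without lucOS p53 tumour 2 (adjusted p = 0.0246). With hepatocyte marker centring, under which 39.7% of all genes were lower in luc tumours, the luc difference was -1.07 and passed the threshold (adjusted p = 0.0371). Gsto2, next to it on chromosome 19, did not exceed 25 in any tumour. Gstk1, the mitochondrial and peroxisomal kappa-class enzyme, was not called, with differences of 0.87 ± 0.35, 0.78 ± 0.41 and 1.42 ± 0.49. Gstz1, which acts in tyrosine breakdown as maleylacetoacetate isomerase, differed by 0.69, 0.69 and 0.70 and passed the threshold in set 2 (adjusted p = 0.0358). That call was lost without p53 tumour 1, 2 or 3 or lucOS β-catenin tumour 2 or 3 (adjusted p = 0.0757 to 0.110).

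Mgst1, a microsomal transferase that also reduces lipid peroxides, rose in all 3 comparisons. In set 1 it was 6855, 2995 and 8136 in luc p53, 11896, 9703 and 5698 in lucOS p53, 31782, 36577, 39828 and 37408 in luc β-catenin and 42599 and 40561 in lucOS β-catenin tumours. In set 2 it was 5698, 7163, 7184 and 8392 in lucOS p53, 45357, 35524 and 28843 in luc β-catenin and 31472, 19643 and 59926 in lucOS β-catenin tumours. No β-catenin tumour overlapped a p53 tumour. The log2 differences were 2.72 ± 0.33 (adjusted p = 0.000917), 2.26 ± 0.40 (adjusted p = 0.0184) and 2.24 ± 0.33 (adjusted p = 0.00469), the second of which held in 3 of 5 fits without a tumour. Mgst2, which can make leukotriene C4, was 608, 1276 and 806 in lucOS p53 and 321 and 33.6 in lucOS β-catenin tumours of set 1 and fell by 3.02 (adjusted p = 0.0475), a call that held in 1 of 5 such fits. In set 2 it differed by 1.17 ± 0.96 in the other direction and was not called. Mgst3 rose in set 2 by 1.58 ± 0.32 (adjusted p = 0.0128).

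Few sulfotransferases were called. Of the SULT1 genes, which act on phenols, thyroid hormone, catecholamines and estrogen, 0, 0 and 1 of 5 were called higher and 1 in each comparison lower. The higher one was Sult1e1, which passed the filter only through β-catenin tumours, so its call is not given as a test. The lower one was Sult1c2. It stood at 3994, 1698 and 1905 in luc p53 and 267, 328, 451 and 376 in luc β-catenin tumours. The lucOS tumours of set 1 had 1501, 1395 and 1458 with p53 and 494 and 335 with β-catenin. In set 2 it was 2230.5, 1767, 2132 and 2191 in lucOS p53, 781, 463 and 681 in luc β-catenin and 1581, 492 and 573 in lucOS β-catenin tumours. The drivers did not overlap, and Sult1c2 fell by 2.74 (SE 0.30, adjusted p = 0.000546), 1.83 (SE 0.36, adjusted p = 0.0266) and 1.44 (SE 0.37, adjusted p = 0.0281). The luc call held in all 7 fits without a tumour, the others in 1 of 5 and 2 of 7. The kidney tubule markers given above were also high in the p53 tumours, and their part in this difference was not tested.

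Sult1e1, the estrogen sulfotransferase, was at 0 in all 4 lucOS p53 tumours of set 2 and at 2.91, 1262 and 118 in the lucOS β-catenin tumours. Taking 3 reads per library as the floor (2.74 to 3.56 in deposited units), the β-catenin mean of 461 was at least 153-fold higher, and 1 tumour accounted for most of that mean. It passed the filter only through β-catenin tumours (4 of which reached 10, against 0 p53 tumours), so its call is not given as a test. Sult1d1, which sulfates catecholamines and had the highest SULT1 mean, was 16441, 8998 and 5089 in luc p53 and 8198, 6959.9, 9624 and 5293 in luc β-catenin tumours and was not called in any comparison. Sult1a1, the phenol sulfotransferase, was not called either, with differences of 0.95 ± 0.51, 0.53 ± 0.61 and 1.57 ± 0.71.

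Of the SULT2 to SULT6 genes, Sult2a3 was called higher in all 3 comparisons. The Sult2a enzymes sulfate bile acids and steroids. Sult2a3 was 125, 106 and 134 in luc p53 and 325, 998, 1588 and 1466 in luc β-catenin tumours. With lucOS in set 1 it was 96.5, 13.9 and 34.1 in p53 and 958 and 791 in β-catenin tumours, and in set 2 it was 22.8, 49.7, 97.5 and 125 in p53 and 2819.9, 308 and 1610.3 in β-catenin tumours. The drivers did not overlap, and Sult2a3 rose by 2.94 ± 0.64 (adjusted p = 0.0144), 4.55 ± 0.77 (adjusted p = 0.0162) and 4.17 ± 0.76 (adjusted p = 0.00931). The luc call was lost without luc p53 tumour 1 or 2 (adjusted p = 0.0526 and 0.0521), and the set 1 lucOS call without either β-catenin tumour (adjusted p = 0.0678 and 0.0792).

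The other Sult2a genes tested were not called. Sult2a1, with the highest mean value, was 4124, 1523 and 1997 in luc p53 and 946, 969, 6319.6 and 681 in luc β-catenin tumours, with overlap. Sult2a4, Sult2a5 and Sult2a6 differed by 1.58 ± 0.59, 1.79 ± 0.80 and 1.67 ± 0.92 in the luc comparison (adjusted p = 0.0896, 0.144 and 0.235). Sult6b1 was 43.5, 151 and 21.5 in luc p53 and 11.3, 6.83, 2.69 and 3.70 in luc β-catenin tumours, and 1 of the 6 β-catenin tumours of set 1 reached 10. It passed the filter only through p53 tumours, so its call is not given as a test.

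Levels of different genes were compared per kilobase of transcript, in set 1. Gsta3 ranked first of the members in all 4 groups, with means of 21245 ± 10133 (SD, n = 3) per kilobase in luc p53 and 68654 ± 15702 (SD, n = 4) in luc β-catenin tumours. In luc p53 tumours Gstp1 came next (12556) and then Gstm1 (12305), whose ranges overlapped. In luc β-catenin tumours the order was Gstm1 (37276), Mgst1 (31190), Gstp1 (15755) and Ugt1a1 (14549.9), with overlapping ranges for the first pair and for the last pair. The range of Gsta3 over tumours overlapped that of Gstm1 in both groups. Ugt3a2 was at 14.1 and 954 per kilobase in these groups and Sult1c2 at 1372 and 193.

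Comparing lucOS with luc, which asks about the antigen, no gene was called. In limma 0 members were called among p53 tumours of set 1, β-catenin tumours of set 1 and β-catenin tumours of set 2, and 0 in the interaction that sets the lucOS driver difference against the luc one, beside 0.0% of all tested genes in each. At an unadjusted p under 0.05 there were 5, 1, 2 and 5 members of 54 (9.26%, 1.85%, 3.70% and 9.26%), beside 4.48%, 1.38%, 1.84% and 2.71% of all genes. Without lucOS p53 tumour 3 the first and last became 13 and 12 of 53 (all genes 7.91% and 4.28%), and without lucOS β-catenin tumour 2 of set 2 the third became 10 of 54 (all genes 2.54%). edgeR called 0 genes in each. DESeq2 called 9, 18, 10 and 17 genes, of which 1, 0, 0 and 1 were members, in both cases Ugt3a2. The members' medians were 0.21, -0.11, 0.25 and -0.27. These comparisons share their tumours with the driver comparisons of the same set.

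Over the 3 antigen comparisons the largest member difference was that of Ugt3a2 in p53 tumours. In β-catenin tumours the differences reached 2.60 for a SULT1 gene in set 2. In set 1 they reached 2.10 for a SULT2 to SULT6 gene and -2.02 for an MGST gene. The genes described here are from p53 tumours apart from Gsta2, and those other than Ugt3a2 and Gsto1 were named after their values were seen. Ugt3a2 was 8.15 to 63 with luc and 169 to 305 with lucOS, a difference of 3.18 ± 0.60 (adjusted p = 0.911 in limma and 0.00121 in DESeq2). Its driver difference was smaller with lucOS than with luc by 3.66 ± 0.87 log2 units (adjusted p = 0.9998 in limma and 0.0368 in DESeq2). Ugt3a1 differed by 2.38 ± 0.69 in the same direction (adjusted p = 0.952). Gsto1 was 6131 to 8386 with luc and 898 to 4009 with lucOS, a difference of -1.76 ± 0.41 (adjusted p = 0.952 in limma), and these groups did not overlap. In β-catenin tumours of set 2 Gsta2 was 559 to 818 with luc and 1681 to 3390.1 with lucOS (1.73 ± 0.44, adjusted p = 1 in limma). None of these passed the threshold over all genes in limma.

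Genes that supply, extend or regulate conjugation were taken from a list of 46, of which 45 were found and 45, 45 and 44 tested. Of these, 13, 5 and 13 were called higher with β-catenin and 1, 1 and 2 lower. Of all tested genes, 5.93%, 1.62% and 6.08% were higher and 9.16%, 2.59% and 10.9% lower. The medians of the list were 0.82, 0.62 and 1.04, beside -0.20, -0.15 and -0.16 for all tested genes. Ugdh, which makes UDP-glucuronate, rose in all 3 comparisons, from 5535, 4682 and 4308 in luc p53 to 11192, 18999, 29828 and 13716 in luc β-catenin tumours. Its differences were 1.83 ± 0.32, 2.12 ± 0.38 and 1.49 ± 0.34 (adjusted p = 0.00549, 0.0193 and 0.0196). Gss, glutathione synthetase, rose by 0.82, 0.81 and 0.67, of which the lucOS calls were lost in every fit without a tumour. The 3 genes of sulfate donor supply did not move together. Slc26a1, a sulfate transporter named after its values were seen, rose by 2.86 ± 0.60 in luc tumours (adjusted p = 0.0127) and differed by 1.99 and 1.49 in the lucOS comparisons (adjusted p = 0.126 and 0.108). Papss2, which makes the sulfate donor, differed by 1.34, 0.61 and 0.38 and was not called. Papss1, its paralog, was 1423, 1120.0 and 938 in luc p53 and 282, 363, 274 and 448 in luc β-catenin tumours and fell by 1.77, 1.68 and 0.88 (adjusted p = 0.00708, 0.0399 and 0.0274), calls that held in 7 of 7, 1 of 5 and 2 of 7 fits without a tumour.

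Of the exporters of conjugates, Abcg2 rose in all 3 comparisons by 1.35, 1.23 and 1.58 (adjusted p = 0.00884, 0.0492 and 0.00554). Abcc2, the canalicular exporter of glucuronides, and Abcc3, its basolateral counterpart, rose in luc tumours and in set 2, by 1.63 and 1.18 and by 2.67 and 2.30. In fits without a tumour the set 1 lucOS call of Abcg2 held in 1 of 5, the luc calls of Abcc2 and Abcc3 in 3 of 7 and the set 2 call of Abcc3 in 1 of 7. Among other conjugating enzymes, Glyat, which couples glycine to acyl groups, rose in all 3 (2.36, 1.85 and 1.94, the lucOS calls holding in 0 of 5 and 2 of 7 such fits), and Baat, which joins bile acids to amino acids, rose in luc tumours and in set 2 (2.19 and 1.94). Inmt, an amine methyltransferase named after its value was seen, was the other gene called lower in set 2 (-2.12, adjusted p = 0.0332), which held in 2 of 7.

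Of 9 regulators, Ahr, the aryl hydrocarbon receptor, was called in luc tumours (2.36 ± 0.52) and in set 2 (1.81 ± 0.41). Nfe2l2, which encodes NRF2, was 1495, 2944 and 3402 in luc p53 and 8421, 5489, 7598 and 5994 in luc β-catenin tumours and rose by 1.46 ± 0.27 there (adjusted p = 0.00745), with 0.79 ± 0.32 and 1.15 ± 0.37 in the lucOS comparisons (adjusted p = 0.165 and 0.0602). Of 5 reference targets of NRF2, Srxn1 was called in all 3 comparisons (3.35 ± 0.68, 3.37 ± 0.81 and 3.19 ± 0.47), the second call lost in all 5 fits without a tumour. Nqo1 was called in luc tumours alone (3.66 ± 0.66), with 0.80 ± 0.79 and 0.94 ± 0.75 in the lucOS comparisons. Keap1 was not called. Nfe2l2, Nqo1 and Keap1 were named after their values were seen.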

How the data were processed

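RNA sequencing values of 22 mouse liver tumours came from 2 tables of gene-level signal deposited by the authors. Per the submitters' processing notes the tools were TopHat2, featureCounts and DESeq2 and the build mm10, and the treatment of reads that match several genes is not given in the sources used here. Per the labels' protocols the libraries were TruSeq, with strand not stated, so reads of overlapping or antisense genes cannot be told apart. Of the deposited signal values, 100% in each set were whole multiples of a value per sample (tolerance 0.01 reads), and these recovered reads served for depth, floors, edgeR 4.0.16 and DESeq2 1.42.0. Standard errors are from the limma fits and reflect the spread between tumours, whereas floors cover counting error only.

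Set 1 held 33068 transcripts, and the one with the highest mean stood for each gene (4914 genes had several, and 53 symbols turned into dates were restored). Set 2 held 24046 symbols, of which 27 dates were left out. The tables were scaled separately, so tests stayed within a table. Kept were genes that reached 10 in 2 or more tumours of set 1, or in 3 or more of set 2, and log2(value + 1) was fitted with limma 3.58.1 (trend) in R 4.3.3 with all groups of a set, and p-values were adjusted over all kept genes by Benjamini-Hochberg. The fit was tested on simulated data. Fold changes on this scale understate changes of low genes. Means and SDs are of deposited values.

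The members and lists were chosen with earlier results of these data known. Named were Ugt3a2 and Gsto1, the 8 called members per direction with the largest difference in each driver comparison (5 in the antigen comparisons), the member with the highest mean of each family, 4 members never called, and list genes called the same way in at least 2 driver comparisons. Further members are given for completeness of their family. Positions are from GENCODE vM21 (GRCm38), and promoter sequences from RefSeq (GRCm38.p6).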

Additional observations from a re-analysis of the deposited data

Results flagged for a closer look

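In groups of 4 tumours, a highest or lowest value was singled out when its gap to the nearest value exceeded Dixon's critical share of the group's range for 4 values, over 59 checks of named members. Chance alone gives about 1 in 20 groups. All 5 such values were in luc β-catenin tumours of set 1. Tumour 3 was the highest for Gstp1 (16374), Gstp2 (3056) and Sult2a1 (6319.6). Tumour 2 was the highest for Sult1e1 (137), and tumour 4 the lowest for Gstt3 (1917).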

How the results depend on the processing

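Of the 70 called differences of members, 38 belong to the members chosen by the naming rule, and these gave 588 values under other settings: 459 stayed past the threshold in the same direction and 129 did not. DESeq2 contributed 36 of these values, fewer than the 38 differences. Of the differences not called, 429 stayed so, 19 passed the threshold and 22 changed sign. No paired analysis was possible because the labels give no replicate numbers. Corrections for the reads shared by the Ugt1a genes and centring on hepatocyte markers were chosen after seeing the data.

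In the set 1 lucOS comparison, 15 members were called higher, with 0 from the 2 groups alone, 7 on the Ugt1a excess, 8 with Ugt1a1 alone and 0 to 14 without single tumours. There 2 were lower, with 0 from the 2 groups alone, 1 each under TMM scaling, median centring, edgeR and no filter, and 0 to 2 without single tumours. In set 2, 27 higher became 0 with JAX names alone and 17 to 29 without single tumours, and 1 lower became 0 with JAX names, edgeR or hepatocyte centring and 0 to 1 without single tumours. In luc tumours the 2 lower became 6 with hepatocyte centring, which called 39.7% of all genes lower, and 1 to 2 without single tumours, and 23 higher became 17 to 23. The antigen comparison in p53 tumours and the interaction gave 1 member each with DESeq2. The cause of these changes was not tested.

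Signs that changed, all of differences not called, were as follows. With hepatocyte centring they were Gstp1 (-0.19 lucOS and -0.23 luc, set 1) and Gstt1 (-0.17 and -0.027). With JAX names they were Gsto1 (-0.24) and Sult2a1 (-1.28). Without single tumours the driver difference of Gsto1 in set 2 ran from -0.20 to 0.25, of Gstp1 in lucOS tumours from -0.33 to 0.42 (set 1) and -0.31 to 0.40 (set 2), of Gstt1 in set 1 lucOS from -0.36 to 0.47, of Sult1d1 in luc from -0.73 to 0.12, of Sult2a1 in lucOS from -1.17 to 1.89 (set 1) and -0.32 to 1.34 (set 2), and of Ugt2b34 in set 2 from -0.16 to 1.18. The antigen difference in β-catenin tumours ran from -0.058 to 0.20 (set 1) and -0.075 to 0.32 (set 2) for Gsto1 and from -1.54 to 2.32 in set 2 for Ugt3a2. Groups of 2 to 4 tumours limit these values, and members of a few reads per library are limited by depth.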
